A study of Mus musculus with 6 samples.

Results

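The genes described here encode the aminoacyl-tRNA synthetases, the enzymes that charge each tRNA with its amino acid. They were taken by symbol from the deposited expression table: the letter of an amino acid followed by "ars" and an optional digit, the phenylalanine subunits Farsa and Farsb with Fars2, the glutamate and proline enzyme Eprs1, and the threonine gene once called Tarsl2 and named Tars3 in the table. This gave 38 of the 22105 genes that carried an Ensembl identifier. Of the 38, 18 encode cytosolic enzymes, 17 with the suffix 2 encode mitochondrial enzymes, Gars1 and Kars1 each encode both forms, and Tars3 is a further threonine gene.

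The data came from 6 libraries of RAW264.7, a transformed mouse macrophage line, cultured with phosphate buffered saline (PBS, 3 libraries) or with CM-PEG-PLGA@DOX/R848 nanoparticles (3 libraries). Both groups were treated for 24 h, and the particles were dosed to carry 2 µg/mL of DOX. DOX is doxorubicin, a drug that damages DNA through topoisomerase II, R848 is resiquimod, a Toll-like receptor agonist, PEG and PLGA are polymers, and the sources used here do not say what CM stands for. No library had empty particles, DOX alone or R848 alone, so the effects of the components cannot be told apart, and since the labels name replicates without naming separate cultures, p-values measure the spread between libraries, which may be technical.

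A synthetase first activates its amino acid with ATP and then moves it onto the matching tRNA, which carries it to the ribosome. Cytosolic enzymes serve translation of nuclear genes, and a largely separate set, also encoded in the nucleus and imported, serves translation inside mitochondria. In animal cells several cytosolic synthetases sit together in a multi-synthetase complex held by scaffold proteins. Many synthetase genes are known targets of ATF4, the transcription factor of the amino acid and stress response, and Wars1, the tryptophan enzyme, is known as a gene induced by interferon gamma.

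Values are FPKM, that is, fragments scaled by transcript length and library size, which allows levels to be compared between genes. Fold changes are differences of mean log2(FPKM + 1), nanoparticle minus PBS, tested with limma with adjustment over all genes tested, and a gene is called higher or lower where the adjusted p is under 0.05. Depth could not be recovered from the table and is unknown. PBS libraries listed 12678 to 12872 genes above 0 and nanoparticle libraries 15723 to 15989, and libraries of one group correlated at 0.991 to 0.996 on the log2 scale. Of 10 macrophage markers, 9 had a mean of at least 1 FPKM (Mrc1 did not), and their sum was 3126 to 3239 FPKM with PBS and 1424 to 1530 FPKM with nanoparticles. Lyz2 had the highest mean of the 10, and a single marker reached 1540 FPKM in 1 library. The lower sum therefore does not show that each marker fell. The defining genes of fibroblasts, epithelium, T cells, B cells, melanocytes and erythroid cells each had a mean under 1 FPKM, with a sum of at most 0.648 FPKM for any list in any library. FPKM are relative to the library, so less RNA per cell and fewer cells cannot be told apart from them.

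All 38 synthetase genes reached the minimum mean of 1 FPKM and were tested. After nanoparticle treatment the set did not move one way: 10 genes were higher, 20 were lower and 8 were not called. The 30 called genes make 78.9% of the set, beside 77.2% of the 10229 genes tested. Higher calls made up 26.3% of the synthetases against 42.7% of all genes, and lower calls 52.6% against 34.5%. In 31 of the 38 the PBS and nanoparticle libraries did not overlap (78.8% of all genes tested). The median log2 fold change was -0.25, beside 0.08 over all genes, and the range ran from -1.56 for Vars2 to 0.71 for Aars1. Summed over the 38 genes, the level was 1884 ± 8.39 FPKM (SD, n = 3) with PBS and 1813 ± 17.2 FPKM (SD, n = 3) with nanoparticles.

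**Figure D1:**
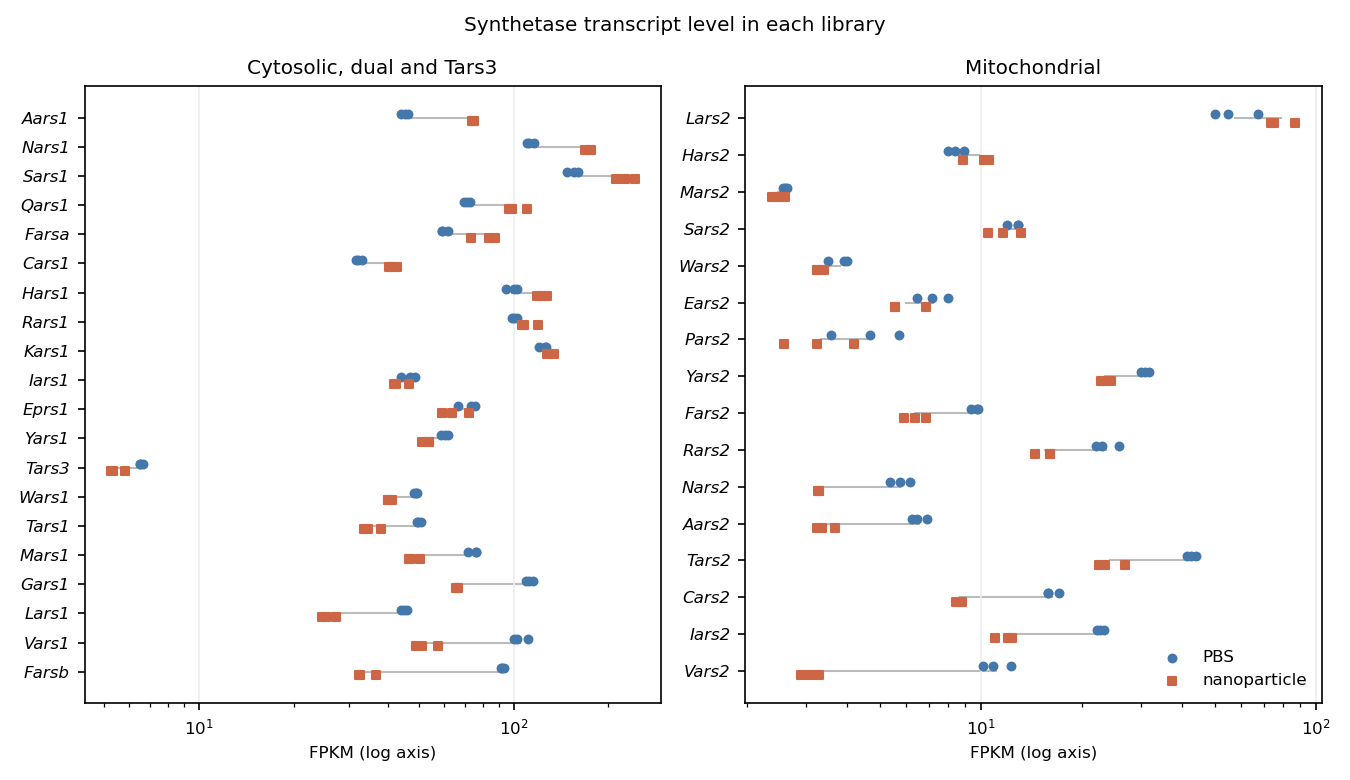
Level of synthetase genes in FPKM (log axis) in the 3 PBS libraries (circles) and the 3 nanoparticle libraries (squares), with a grey line joining the group means. Cytosolic, dual and Tars3 genes are on the left and mitochondrial genes on the right, each ordered by fold change; Farsb and Vars2 at the bottom show the widest gaps.

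The 18 cytosolic genes divided evenly, with 8 higher, 8 lower and 2 not called, and a median log2 fold change of -0.12. The called genes made up 88.9% of the 18, beside 77.2% of all genes tested. Their summed level was 1349 ± 12.2 FPKM (SD, n = 3) with PBS and 1384 ± 19.0 FPKM (SD, n = 3) with nanoparticles. The cytosolic sum thus moved by a ratio of 1.03 while single genes moved by up to 2.73-fold.

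Among the cytosolic enzymes that rose, Aars1, which charges alanine tRNA, had 46.2, 45.1 and 44.0 FPKM in the PBS libraries and 75.2, 74.1 and 74.0 FPKM in the nanoparticle libraries. Every nanoparticle library was above every PBS library, and the log2 fold change (± SE) of Aars1 was 0.71 ± 0.05 (limma adjusted p = 6.8e-07). Nars1, the asparagine enzyme, had 112, 116 and 110 FPKM with PBS and 175, 169 and 177 FPKM with nanoparticles (log2 fold change 0.62 ± 0.05, limma adjusted p = 1.9e-06). Sars1, the serine enzyme, had the highest level of all 38 genes in both groups, with 160, 155 and 148 FPKM with PBS and 243, 226 and 212 FPKM with nanoparticles. Its log2 fold change was 0.55 ± 0.06 (limma adjusted p = 2.4e-05), and its groups did not overlap. Qars1, the glutamine enzyme of the multi-synthetase complex, had 71.4, 73.0 and 69.5 FPKM with PBS and 110, 99.1 and 97.0 FPKM with nanoparticles (log2 fold change 0.51 ± 0.06, limma adjusted p = 3.1e-05). Smaller rises were called for Cars1, the cysteine enzyme (means of 32.2 and 41.3 FPKM), and Hars1, the histidine enzyme (99.2 and 124 FPKM). Rars1, the arginine enzyme, stood at 101 and 112 FPKM with an adjusted p of 0.048, and this call did not last: without PBS replicates 1, 2 or 3, or without nanoparticle replicate 3, limma's adjusted p for Rars1 was 0.106, 0.134, 0.0752 and 0.123.

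Among the cytosolic enzymes that fell, the valine enzyme Vars1 had 111, 102 and 100 FPKM with PBS and 57.5, 51.2 and 48.8 FPKM with nanoparticles. Its level was 1.99-fold lower, with no overlap (log2 fold change -0.98 ± 0.07, limma adjusted p = 8.5e-07). Lars1, the leucine enzyme, which is also known as a leucine sensor for mTORC1, had 45.0, 43.9 and 46.0 FPKM with PBS and 25.4, 24.6 and 27.3 FPKM with nanoparticles (log2 fold change -0.78 ± 0.06, limma adjusted p = 1.2e-06). The glycine gene Gars1, which encodes both a cytosolic and a mitochondrial form, had 110, 116 and 112 FPKM with PBS and 66.5, 65.5 and 66.1 FPKM with nanoparticles (log2 fold change -0.76 ± 0.05, limma adjusted p = 4.0e-07). Lower calls were also made for Mars1 (methionine, 74.6 to 48.0 FPKM), Tars1 (threonine, 49.9 to 35.3 FPKM) and Yars1 (tyrosine, 60.5 to 52.9 FPKM). Tars3, the further threonine gene, was far below Tars1 in level, at 6.55 ± 0.0860 FPKM with PBS and 5.46 ± 0.308 FPKM with nanoparticles (SD, n = 3; limma adjusted p = 0.015, and 0.0618 without nanoparticle replicate 2).

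Wars1 had 49.3, 49.1 and 48.1 FPKM with PBS and 40.0, 41.0 and 39.9 FPKM with nanoparticles. All 3 nanoparticle libraries were below all 3 PBS libraries, and the log2 fold change was -0.27 ± 0.05 (limma adjusted p = 6.7e-04). Eprs1, a single protein that charges both glutamate and proline tRNA, had 73.4, 66.6 and 75.2 FPKM with PBS and 59.2, 63.8 and 72.3 FPKM with nanoparticles. These groups overlapped, and the log2 fold change of Eprs1 of -0.14 ± 0.08 was not called (limma adjusted p = 0.13, and 0.0123 without nanoparticle replicate 3). Iars1, the isoleucine enzyme, was not called either, at 46.6 ± 2.51 and 43.5 ± 2.60 FPKM (SD, n = 3). Kars1, the lysine gene with both forms, stood at 124 ± 3.27 and 131 ± 3.36 FPKM (SD, n = 3), was not called, and its sign depended on scaling: the log2 fold change was 0.07 as deposited and -0.05 with upper quartile scaling.

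The cytosolic phenylalanine enzyme is built from 2 different subunits, and their transcripts moved in opposite directions. Farsa, the alpha subunit, which holds the catalytic site, had 59.4, 61.8 and 59.1 FPKM with PBS and 87.3, 83.4 and 73.1 FPKM with nanoparticles (log2 fold change 0.43 ± 0.07, limma adjusted p = 3.0e-04). Farsb, the beta subunit, had 91.5, 93.1 and 92.1 FPKM with PBS and 32.3, 32.4 and 36.5 FPKM with nanoparticles. That was the largest fall among the cytosolic genes, 2.73-fold, or -1.43 ± 0.06 on the log2 scale (limma adjusted p = 2.2e-08). Within a library the ratio of Farsa to Farsb was 0.649, 0.663 and 0.642 with PBS and 2.71, 2.57 and 2.00 with nanoparticles, so the beta transcript was the more abundant in every PBS library and the alpha transcript in every nanoparticle library. The within-library log2 ratio of (FPKM + 1) changed by 1.85 (exact permutation test, two-sided, p = 0.1, the smallest that 3 against 3 libraries allow). In level, Farsb went from the rank of 8 among the 38 genes to the rank of 20.

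**Figure D2:**
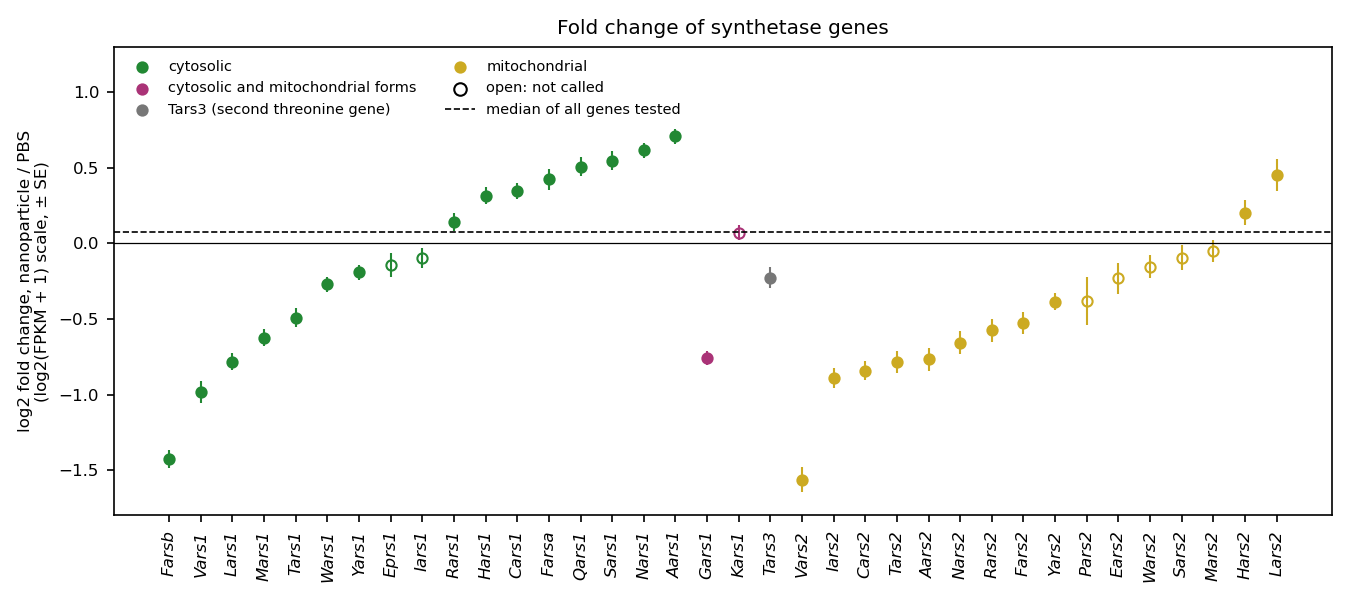
Log2 fold change of synthetase genes (nanoparticle over PBS, log2(FPKM + 1) scale) with its SE, grouped as cytosolic, both forms, Tars3 and mitochondrial; filled points were called and open points were not, and the dashed line is the median of all genes tested, 0.08. Cytosolic genes run from -1.43 to 0.71, while the mitochondrial genes above 0 are Hars2 and Lars2.

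The 8 enzymes of the multi-synthetase complex, among them Eprs1, Iars1, Lars1, Mars1, Qars1, Rars1 and Kars1, had 2 higher, 3 lower and 3 not called (62.5% called, beside 77.2% of all genes tested). Their median log2 fold change was -0.12, and their summed level was 613 ± 5.37 FPKM with PBS and 579 ± 20.2 FPKM with nanoparticles (SD, n = 3). The 12 cytosolic or dual genes outside the complex had 6 higher, 6 lower and none uncalled, with a median of 0.06. Of the 3 scaffolds, Eef1e1 was called higher at 35.6 and 39.7 FPKM (limma adjusted p = 0.037), and this call was lost without PBS replicate 1, PBS replicate 3 or nanoparticle replicate 2 (limma adjusted p for Eef1e1 of 0.129, 0.1003 and 0.149). Aimp1, with 68.9 and 75.1 FPKM, was not called (limma adjusted p = 0.11, and 0.0289 with the replicate number as a block), and Aimp2 had 43.4 and 43.8 FPKM. Synthetases also fall into 2 structural classes by the fold of their catalytic domain. Class I cytosolic genes had 3 higher and 5 lower of 9, and class II cytosolic or dual genes 5 higher and 4 lower of 10, with Eprs1, which holds a domain of each class, left out of both.

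Of the 17 mitochondrial genes, 10 were lower, 2 were higher and 5 were not called, with a median log2 fold change of -0.53. The called genes made up 70.6% of the 17, beside 77.2% of all genes tested. Higher calls made up 11.8% and lower calls 58.8%, beside 42.7% and 34.5%. The groups did not overlap in 12 of the 17, beside 78.8% of all genes tested. Class I mitochondrial genes had 1 higher and 5 lower of 9, and class II mitochondrial genes 1 higher and 5 lower of 8. Their summed level was 292 ± 11.3 FPKM with PBS and 227 ± 5.54 FPKM with nanoparticles (SD, n = 3), 1.29-fold lower. Lars2 had the highest level of the 17 (means of 57.4 FPKM with PBS and 78.6 FPKM with nanoparticles) and rose while the sum fell. The sum was therefore also taken without Lars2, a choice made after the values of Lars2 were seen. Without Lars2 the sum was 235 ± 2.88 FPKM with PBS and 148 ± 5.24 FPKM with nanoparticles (SD, n = 3), 1.58-fold lower.

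Vars2, the mitochondrial valine enzyme, had 12.3, 10.2 and 10.9 FPKM with PBS and 3.29, 2.91 and 3.09 FPKM with nanoparticles. This was the largest change of all 38 genes, 3.59-fold in FPKM, or -1.56 ± 0.09 on the log2 scale (limma adjusted p = 1.2e-07). Iars2, the isoleucine enzyme, had 23.3, 22.3 and 22.7 FPKM with PBS and 11.02, 12.03 and 12.4 FPKM with nanoparticles. Its log2 fold change was -0.89 ± 0.06 (limma adjusted p = 9.2e-07), whereas its cytosolic counterpart Iars1 was not called. Cars2, the cysteine enzyme, had 17.1, 15.9 and 15.9 FPKM with PBS and 8.78, 8.43 and 8.73 FPKM with nanoparticles (log2 fold change -0.84 ± 0.06, limma adjusted p = 1.3e-06). In Vars2, Iars2 and Cars2 the highest nanoparticle library was below the lowest PBS library.

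Mitochondrial genes called lower also included Tars2 (threonine, 42.6 to 24.4 FPKM), Aars2 (alanine, 6.52 to 3.43 FPKM), Nars2 (asparagine, 5.75 to 3.28 FPKM), Rars2 (arginine, 23.7 to 15.5 FPKM), Fars2 (phenylalanine, 9.63 to 6.38 FPKM) and Yars2 (tyrosine, 30.9 to 23.5 FPKM). Fars2 is a single-chain enzyme, unlike its cytosolic counterpart. The 5 genes not called were Pars2 (proline, 4.65 and 3.34 FPKM, limma adjusted p = 0.052), Ears2 (glutamate, 7.20 and 5.99 FPKM), Wars2 (tryptophan, 3.79 and 3.31 FPKM), Sars2 (serine, 12.6 and 11.8 FPKM) and Mars2 (methionine, 2.60 and 2.48 FPKM). Mean levels were lower with nanoparticles in all 5 of these, and the groups overlapped in all but Wars2. For Ears2 the limma adjusted p was 0.0586 as fitted, 0.0408 with the replicate number as a block, 0.0313 without PBS replicate 3 and 0.0139 without nanoparticle replicate 1. For Pars2 it was 0.0132 without PBS replicate 1 and 0.0146 without nanoparticle replicate 1.

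Lars2, the mitochondrial leucine enzyme, had 54.7, 50.1 and 67.4 FPKM with PBS and 73.7, 87.0 and 75.0 FPKM with nanoparticles. It was the most abundant mitochondrial synthetase in both groups, its groups did not overlap, and its log2 fold change was 0.45 ± 0.11 (limma adjusted p = 3.0e-03). Hars2, the mitochondrial histidine enzyme, had 8.37, 8.0 and 8.92 FPKM with PBS and 10.6, 8.85 and 10.2 FPKM with nanoparticles. Its groups overlapped at nanoparticle replicate 2, and the call of its rise, 0.20 ± 0.08 on the log2 scale (limma adjusted p = 0.043), was lost without PBS replicate 1 or 2 or nanoparticle replicate 1 or 3 (limma adjusted p for Hars2 of 0.0976, 0.133, 0.133 and 0.0886).

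Within each library, cytosolic genes were set against the mitochondrial gene for the same amino acid as the log2 ratio of (FPKM + 1), which does not depend on scaling between libraries apart from the added 1. Of the 18 cytosolic genes, 17 had such a counterpart, and Qars1, which has no mitochondrial counterpart among the 17, was left out. Farsa and Farsb were each set against Fars2, and Eprs1 against both Ears2 and Pars2, which gave 18 ratios. The ratio moved toward the cytosolic gene in 14 of 18, with no overlap between groups in 11 of these, and toward the mitochondrial gene in 4 of 18, with no overlap in any of the 4. Beside these counts, single genes did not overlap between groups in 78.8% of all genes tested, and ratios of other gene pairs were not taken. The median change of the 18 ratios was 0.40. No ratio could pass the threshold in this design: the smallest exact permutation p is 0.1, and 0.12 after adjustment over the 18.

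The largest shift toward the cytosolic gene was for alanine. The log2 ratio of Aars1 to Aars2 was 2.71, 2.63 and 2.51 with PBS and 4.03, 4.14 and 4.10 with nanoparticles, a change of 1.48 to which both genes contributed, one rising and one falling. Asparagine (change of 1.27) and cysteine (1.19) followed, again with the cytosolic gene higher and the mitochondrial gene lower. For valine (0.58), threonine (0.29) and tyrosine (0.19) both genes fell, and the mitochondrial gene fell further. The largest shift the other way was for leucine. The log2 ratio of Lars1 to Lars2 was -0.28, -0.19 and -0.54 with PBS and -1.50, -1.78 and -1.42 with nanoparticles, so that the mitochondrial transcript was above the cytosolic one in all 6 libraries, the single pair for which this held. Methionine also moved toward the mitochondrial gene (-0.58), as did Farsb over Fars2 (-0.90) and, by a small amount, tryptophan (-0.12). Histidine, and Eprs1 against Ears2 or Pars2, overlapped between groups.

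**Figure D3:**
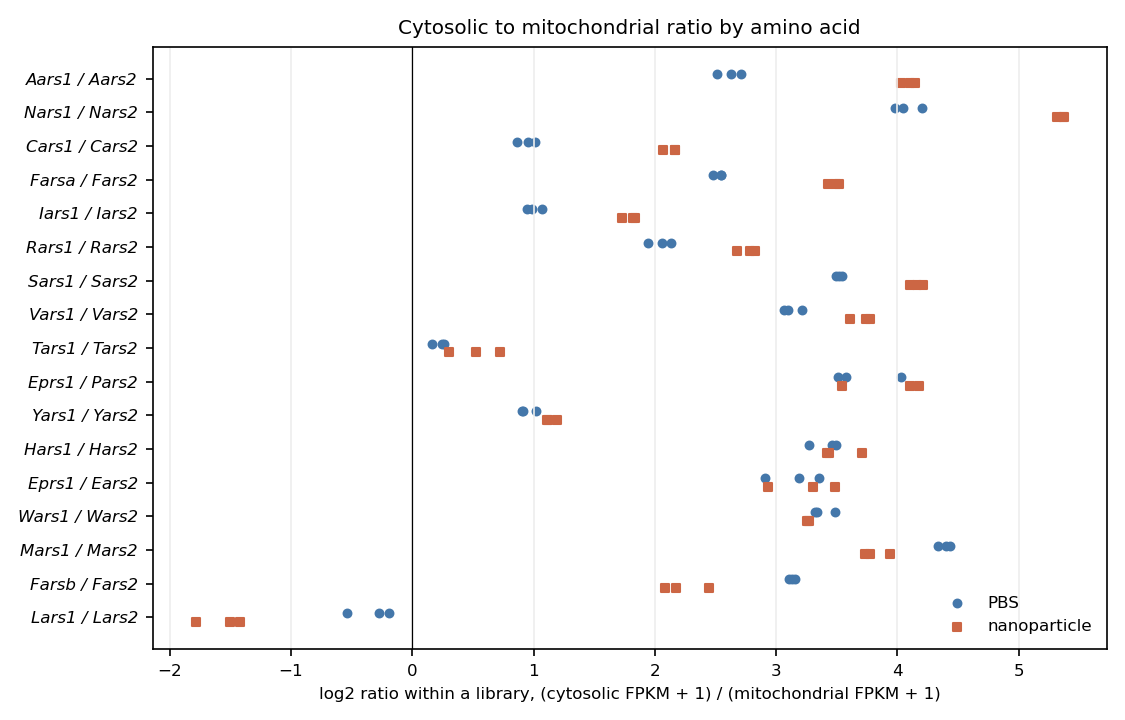
Within-library log2 ratio of cytosolic synthetases to their mitochondrial counterparts, (FPKM + 1) over (FPKM + 1), with 3 PBS libraries as circles and 3 nanoparticle libraries as squares; the vertical line marks equal levels. Most ratios lie further right, toward the cytosolic gene, with nanoparticles, and the leucine pair at the bottom lies left of the line in every library.

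The summed cytosolic level was 4.68, 4.79 and 4.40 times the summed mitochondrial level in the PBS libraries and 6.16, 5.90 and 6.24 times in the nanoparticle libraries. Without Lars2, taken out after its values were seen, the ratio was 5.75 ± 0.0907 with PBS and 9.33 ± 0.200 with nanoparticles (SD, n = 3). The median log2 fold change of the cytosolic genes lay 0.41 above that of the mitochondrial genes. Taking each nanoparticle library alone against the PBS mean gave 0.27, 0.49 and 0.54; these values share the same PBS mean and are not independent.

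The genes with the largest changes lie on different chromosomes or far apart. On GRCm38, Aars1 (ENSMUSG00000031960) spans 111033144 to 111057664 of chromosome 8, and Farsa (ENSMUSG00000003808) spans 84856989 to 84869257 of the same chromosome, both on the plus strand. Farsb (ENSMUSG00000026245) spans 78417975 to 78488897 of chromosome 1 on the minus strand. Lars2 (ENSMUSG00000035202) spans 123366927 to 123462666 of chromosome 9 on the plus strand. Vars1 (ENSMUSG00000007029) and Vars2 (ENSMUSG00000038838), which both fell, are separated by 639311 bases on chromosome 17 and lie on opposite strands. Iars2 and Eprs1 are closer, 33647 bases apart on chromosome 1, and of these Iars2 was called lower and Eprs1 was not called.

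Some synthetase genes share exon sequence with others, and the sources used here do not say whether fragments were assigned by strand. Mars1 (chromosome 10, 127296221 to 127311786) shares 68 exon bases with the opposite-strand gene Ddit3, whose level rose from 5.36 to 288 FPKM. Iars2 (chromosome 1, 185284726 to 185329396) shares 2034 exon bases with the opposite-strand gene Rab3gap2, whose log2 fold change was -0.09. Hars1 and Hars2 lie head to head and share 195 exon bases on opposite strands. Cars2 shares 422 exon bases with the more abundant opposite-strand gene Naxd (mean of 22.5 FPKM, log2 fold change 0.31). Vars2 shares 465 exon bases with the antisense gene Gm20483, for which no value was used. Tars3 shares 120 exon bases with the more abundant same-strand gene Tm2d3 (mean of 20.0 FPKM, log2 fold change 0.13). Ears2 shares 89 with the more abundant opposite-strand gene Ubfd1 (mean of 18.3 FPKM, log2 fold change 0.52). Aars1 shares 1326 exon bases with the same-strand gene Exosc6, listed at a mean of 0.172 FPKM, and Farsb 248 with the opposite-strand gene Sgpp2, at 0.0591 FPKM. Part of the reads of these genes cannot be told apart from those of the overlapping gene, on opposite strands unless strand was used. The same holds for Cars1, which shares 211 exon bases with the opposite-strand pseudogene Gm15580, or 2.44% of the stretches of 50 bases of Cars1. Iars1 shares 7.15% of its stretches of 50 bases with the pseudogene Gm4849. How far the FPKM of Cars1 and Iars1 were affected is not known.

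Promoters were also searched for the C/EBP-ATF response element, the kind of site through which ATF4 is known to act. Whether such sites had a part in the changes of these transcripts was not tested. RefSeq promoter entries on GRCm38.p6 matched 28 of the 38 synthetase genes, and the 250 bases before each start were searched on both strands. The element was spelled TGATGNAA, or TTNCATCA on the other strand. It was found before 3 of the 28, which is 10.7%, beside 2.43% of 8104 tested genes with an entry and 3.91% of all 27025 genes with an entry. Synthetase genes were also matched by older symbols, as all 3 of these were, while other tested genes were matched by their symbol in the expression table alone. The shares of synthetases and tested genes, here and for the other sites below, are therefore not from sets matched alike. Shown here are the sites 30 bases before Gars1 (chr6:55037960-55037989, plus strand) and 15 before Tars1 (chr15:11399659-11399688, minus strand), to show how the same motif sits before 2 genes called lower. The other gene with a match was called higher, so the 3 did not move the same way. Each is written 5′ to 3′ on the strand of the gene, with the match in capitals, and the window of Tars1 overlaps an annotated exon of the gene in GENCODE M21.
Gars1: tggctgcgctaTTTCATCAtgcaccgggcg
Tars1: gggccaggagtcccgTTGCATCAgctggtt
The gamma activated site, TTCNNNGAA, was found before 3 of the 28, Kars1 and Nars2 among them (10.7%, beside 7.03% of tested genes), and the interferon-stimulated response element, searched as GAAA, then 2 bases of any kind, then GAAA, before Qars1 (3.57%, beside 3.37%). A match describes letters in the window and shows no binding.

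Genes of the ATF4 pathway, taken as a list of regulators and known targets with the kinases of eIF2, had 16 higher and 2 lower of 21 tested, beside 42.7% higher and 34.5% lower over all genes tested, and their median was 0.82 on the log2 scale (0.08 over all genes). The count depends on which targets the list holds: Asns, Psat1 and Slc7a5, also known as ATF4 targets, were placed in the lists of synthesis and transport, and all 3 fell. They do not stand for those lists, where Slc1a4, Slc6a9 and Slc3a2 were among the genes called higher. The synthesis list had 6 higher and 11 lower, and the transport list 8 higher and 5 lower. Ddit3, the stress transcription factor also called CHOP, had 5.46, 5.91 and 4.72 FPKM with PBS and 290, 292 and 281 FPKM with nanoparticles (log2 fold change 5.51 ± 0.07, limma adjusted p = 2.5e-11). Atf3, a further stress factor, rose from 7.89 to 144 FPKM. Atf4 itself had 135, 138 and 133 FPKM with PBS and 160, 156 and 156 FPKM with nanoparticles (log2 fold change 0.21 ± 0.05, limma adjusted p = 2.3e-03, and 0.0878 for Atf4 with upper quartile scaling). The 2 that fell were Eif2s3x, a subunit of eIF2 (64.5 to 49.5 FPKM), and Cebpb (42.5 to 34.8 FPKM). Eif2ak4, the kinase GCN2 that senses uncharged tRNA, had 7.42 ± 0.463 and 6.62 ± 0.617 FPKM (SD, n = 3) and was not called (limma adjusted p = 0.14, and 0.0478 with the replicate number as a block). With that block 4 of the list were lower in place of 2. The cytosolic synthetases had a median of -0.12 on the same scale.

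Of 7 editing and deacylase genes, which remove wrong or stranded amino acids and peptides from tRNA, 4 were lower and 2 higher, with a median log2 fold change of -0.31. Aarsd1, which resembles the editing domain of the alanine enzyme, had 46.0, 49.1 and 49.7 FPKM with PBS and 15.4, 16.3 and 13.9 FPKM with nanoparticles (log2 fold change -1.61 ± 0.07, limma adjusted p = 2.5e-08), the opposite direction to Aars1. Dtd1, a D-aminoacyl-tRNA deacylase, fell from 22.2 to 8.51 FPKM, while Prorsd1 rose from 21.9 to 42.9 FPKM. No mitochondrial gene for glutamine is among the 17, since mitochondria make glutamine tRNA by an amidotransferase. Of its 3 subunits and the formylase Mtfmt, 3 of 4 were called lower, led by Gatb (13.9 to 6.48 FPKM, log2 fold change -0.99), and Gatc was not (limma adjusted p = 0.12, and 0.0448 with the replicate number as a block). Mtfmt, at 16.95 and 14.8 FPKM, lost its call without PBS replicate 2 (limma adjusted p for Mtfmt of 0.0514), where 1 of the 4 remained called. Selenocysteine, made on its tRNA, had 5 of 6 genes lower and none higher, led by its elongation factor Eefsec (16.1 to 7.23 FPKM) and the kinase Pstk (13.6 to 6.30 FPKM). Of 20 genes of tRNA end processing and export, 11 were lower and 5 higher. In the order given, called genes made up 85.7%, 75.0%, 83.3% and 80.0% of these 4 lists, beside 77.2% of all genes tested. Lower calls made up 57.1%, 75.0%, 83.3% and 55.0%, beside 34.5%. The tRNA export receptor Xpot fell from 43.9 to 18.9 FPKM. Pop4, an RNase P subunit, rose from 6.31 to 11.8 FPKM, and Clp1, an RNA kinase, from 14.01 to 21.6 FPKM.

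Amino acid synthesis genes had 6 higher and 11 lower of 19 tested, with a median log2 fold change of -0.34. Asns, asparagine synthetase and a known ATF4 target, had 91.6, 88.8 and 88.4 FPKM with PBS and 61.9, 61.6 and 60.3 FPKM with nanoparticles (log2 fold change -0.54 ± 0.05, limma adjusted p = 4.1e-06), while Nars1, which charges tRNA with asparagine, rose. Aldh18a1, of proline synthesis, fell from 37.1 to 13.1 FPKM, and the serine pathway gene Psat1 from 194 to 108 FPKM. Asl, of the arginine route, rose from 23.1 to 48.8 FPKM, and Glul, glutamine synthetase, from 18.1 to 27.7 FPKM. Amino acid transporters had 8 higher and 5 lower of 18, with a median of 0.13. Slc1a4 (1.34 to 4.95 FPKM) and Slc6a9 (2.60 to 6.56 FPKM) rose from low levels, and Slc6a6 (70.6 to 34.0 FPKM) and Slc7a5, a carrier of large neutral amino acids (63.1 to 44.1 FPKM), fell. The mTORC1 amino acid sensing list had 5 higher and 7 lower of 16. Higher calls made up 31.6% of the synthesis, 44.4% of the transport and 31.25% of the mTORC1 list, beside 42.7% of all genes tested. Lower calls made up 57.9%, 27.8% and 43.75%, beside 34.5%. Flcn (11.2 to 37.0 FPKM) and Rraga (39.7 to 109 FPKM) rose, and Rptor (13.5 to 7.21 FPKM) and Lamtor4 (27.6 to 15.9 FPKM) fell.

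**Figure D4:**
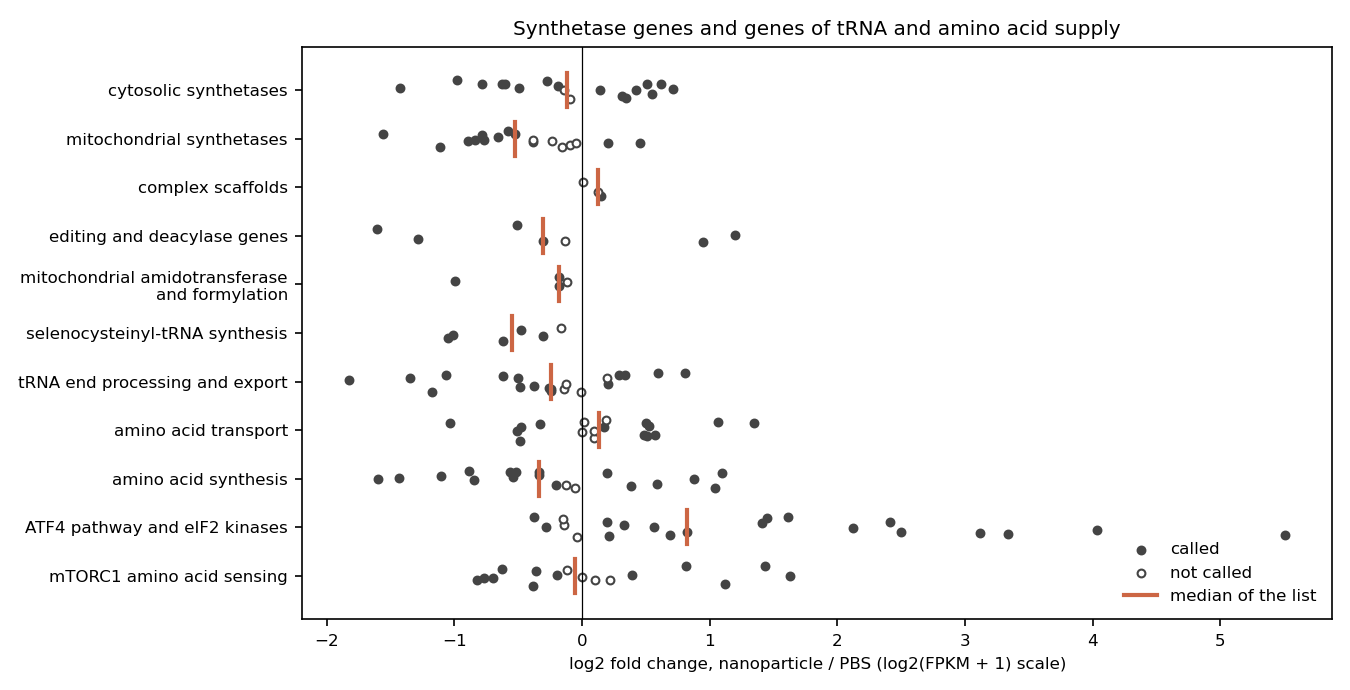
Log2 fold change (nanoparticle over PBS, log2(FPKM + 1) scale) of each tested gene in the synthetase sets and the related lists; filled points were called, open points were not, and the vertical bar is the median of the list. The mitochondrial synthetases have a median of -0.53 and the ATF4 pathway list a median of 0.82.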

How the data were processed

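RNA was extracted with TRIzol and sequenced after a BGI mRNA preparation, per the labels' protocols. The authors deposited 1 table with a column of FPKM per library, fragments already scaled by length and library size. Its header names no unit, and FPKM was inferred from values that were not whole and summed to 451056 to 469220 in each library. Per the submitters' processing notes, tools included STAR and featureCounts (versions not given), and GRCm38 and mm10 appear as builds. Of 22614 rows, 509 without an Ensembl identifier (0.427% to 0.497% of the FPKM) were left out. Low values were whole fragments (within 0.05) for at most 36.6% of cases at the best depth tried, so no count test was run. Columns were matched by library name, and that of PBS replicate 1 carries a suffix of unknown meaning.

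Values were tested as log2(FPKM + 1) for genes averaging 1 FPKM or more across 6 libraries, in limma 3.58.1 (R 4.3.3) with an intensity trend, treatment as the only term, two-sided, Benjamini-Hochberg adjusted over 10229 genes, threshold 0.05. Such fold changes understate the change of low genes. Ratios within a library were compared by exact permutation. Python 3.11.15 with pandas 2.3.3 and matplotlib 3.10.9 handled tables and plots. The gene test was tested on simulated data. Coordinates and exon overlaps came from GENCODE M21 (GRCm38), and promoters from RefSeq (GRCm38.p6).

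The labels give both groups replicates 1 to 3 without saying what a number marks. Deviations from the group means correlated at 0.130, 0.115 and 0.354 for same-numbered libraries, each above 0.1, so a fit with the number as a block was also run. PBS replicate 2 and nanoparticle replicate 1 correlated at 0.134.

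The synthetase genes and the lists of related genes were chosen with earlier results of these data known. Values in every library are given for the called genes that changed most, up to 4 upward and 4 downward, among cytosolic and dual genes and among mitochondrial genes, and for Wars1, Farsa, Farsb and Eprs1. From each related list the 2 genes with the smallest p in each direction are named, with Asns, Atf4, Ddit3 and Eif2ak4, and genes beyond this were named after their values were seen. Alternatives were other pseudocounts (0.1 and 5), filters (none, or an average of 5 FPKM or more), scalings (upper quartile, median-ratio, equal library sums), no intensity trend, the block, and each library left out in turn. Some genes and 1 sequence taken by these rules are not reported here, though the genes stay in every count, sum and median.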

Additional observations from a re-analysis of the deposited data

How the results depend on the processing

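The number of synthetases called was 28 to 34 under the alternatives, beside 30 as fitted. The mitochondrial members higher fell from 2 to 1 without the filter on low values and with upper quartile, median-ratio or equal-sum scaling, and were 1 to 2 when libraries were left out in turn; the gene lost was Hars2, whose adjusted p with these 4 settings was 0.0573 to 0.313. The cytosolic minus mitochondrial median log2 fold change was 0.25 at a pseudocount of 5 and 0.47 at a pseudocount of 0.1, beside 0.41. It was 0.32 to 0.50 when libraries were left out. Upper quartile scaling moved the median log2 fold change of all genes tested from 0.08 to -0.03. With that scaling, members lower were 26 and members higher 8; Eprs1, Iars1, Ears2, Pars2, Wars2 and Sars2 were then called lower and the calls of Rars1 and Hars2 were lost. With the replicate number as a block, members called were 31 and all genes called were 8351, beside 7896; the block changed no call of a synthetase other than that of Ears2. Beyond the counts given above, the list of amino acid response regulators and ATF4 pathway, lower, held 5 genes with upper quartile and 4 with median-ratio scaling, that of amino acid transport, higher, held 4 at a mean of at least 5 FPKM, and that of multi-synthetase complex scaffolds, higher, held 0 to 2. Depth is unknown, so no counting error could be given, and with 3 libraries in each group a single library could decide calls near the threshold.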
